A study of Mus musculus with 35 samples.

Results

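The genes examined are those that encode the alpha chains of collagens, the proteins from which most of the fibers and sheets of the extracellular matrix are assembled. They were taken by name and type only, as every row of the count table that is protein coding and has a symbol of the form Col, a number, the letter a and a number. This rule gave 44 genes of 54532 in the table. By the structure that each chain builds, 11 were fibrillar, 6 basement membrane (type IV), 6 beaded filament (type VI), 9 fibril-associated, 4 transmembrane, 3 short-chain network and 2 multiplexin collagens, and 3 (Col7a1, Col26a1 and Col28a1) were kept as anchoring and remaining collagens. Between 36 and 38 of the 44 passed the low-count filter in the comparisons that average both sexes. Col2a1, Col9a1, Col9a2, Col10a1, Col11a1 and Col19a1 never passed it.

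A collagen molecule is a triple helix of alpha chains, which are hydroxylated and folded in the endoplasmic reticulum, trimmed after secretion and crosslinked by lysyl oxidases. In the lung, fibrillar types I and III form the load-bearing fibers around vessels and airways and in the alveolar septa, type IV forms the sheet of the basement membrane between endothelium and alveolar epithelium, and type VI links cells to the surrounding matrix. Excess fibrillar collagen is the hallmark of lung fibrosis, and loss of caveolin-1, the coat protein of caveolae, has been tied to it, so that collagen levels were compared here by Cav1 genotype and oxygen.

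Whole lung RNA of 34 mice, at least 3 months old, had been sequenced. Control mice were wildtype B6/129SJ2, and Cav1-KO mice were the global knockout line Cav1tm1Mls/J, spelled Cav1(tm1Mls/)J in the labels. Cav1-RC mice lacked Cav1 in all cells except the endothelium, where it had been restored. Mice of each genotype and sex spent 6 weeks in normoxia or in hypoxia at 10% oxygen, with 3 mice in each of 10 groups of genotype, oxygen and sex, and with 2 among the normoxic females of Cav1-KO and of Cav1-RC. The promoter and the species of the restored Cav1 are not given in the sources used here. The Cav1-RC mice came from another laboratory, while the Control and Cav1-KO lines had been bought from a vendor.

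Depth ranged from 12425535 to 33343006 counts per library. Cav1 stood at 989 to 1360 CPM (counts scaled to library size) in Control, at 1.61 to 4 in Cav1-KO and at 1.48 to 6.56 in Cav1-RC libraries. It thus separated both mutant genotypes from Control but not the libraries labelled Cav1-RC from those labelled Cav1-KO (log2 fold change -0.11, adjusted p = 0.841 in normoxia and 0.44, adjusted p = 0.252 in hypoxia). Cav1-RC therefore stands here for the libraries so labelled, and whether reads of the restored gene map to Cav1 is not stated. In 3 libraries (male Cav1-RC normoxia replicates 1 and 2, male Control hypoxia replicate 2) Xist and the Y-linked genes went against the sex label. The animal numbers of 12 of the 34 mice appear in the source images of the study's western blots, here called the blot list. All 6 Cav1-KO hypoxia mice were on it, as were 4 of 6 Control hypoxia mice, 1 of 6 Control normoxia and 1 of 5 Cav1-RC normoxia mice, against 0 of 5 Cav1-KO normoxia and 0 of 6 Cav1-RC hypoxia mice. The ratio of Col4a3 to Col4a4, given further on, moved with this list, so the collagen counts of the comparisons that average the sexes are also given among libraries alike for it, where both groups had any. The comparisons within 1 sex were not repeated in this way. A further library, left out of every comparison, is labelled only as possibly female Cav1-KO normoxia, and its animal number is on the blot list, where it stands as female Cav1-KO in normoxia. Its ratio of Col4a3 to Col4a4 was 0.364, against 1.39 to 1.59 in the 5 Cav1-KO normoxia and 0.4 to 0.526 in the 6 Cav1-KO hypoxia libraries.

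The 6 type IV genes lie in 3 pairs that point away from each other. Col4a1 (minus strand) and Col4a2 (plus strand) start on chromosome 8 at 11312826 and 11312805, so that the transcripts share 22 bases. Col4a4 and Col4a3 lie on chromosome 1 with 71 bases between them, and Col4a6 and Col4a5 on chromosome X with 1308. The first 2 sequences are shown because the levels of these pairs are set against each other further on, and that of Col3a1 because it was among the fibrillar genes with the smallest p in Cav1-KO. All are from RefSeq's GRCm38.p6 (mm10), written 5′ to 3′, with capitals marking matches on either strand to 6 motifs, of which these stretches hold a GC box in the first and a TATA box in the third. The first holds both start sites of the Col4a1 and Col4a2 pair (chr8:11312801-11312830, plus strand), the second the stretch between Col4a4 and Col4a3 (chr1:82586850-82586920, minus strand), and the third the 250 bases before the start of Col3a1 (chr1:45311288-45311537, plus strand).
Col4a1 and Col4a2 starts: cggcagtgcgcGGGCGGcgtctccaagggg
Between Col4a4 and Col4a3: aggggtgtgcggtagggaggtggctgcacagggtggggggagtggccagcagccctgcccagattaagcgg
Col3a1: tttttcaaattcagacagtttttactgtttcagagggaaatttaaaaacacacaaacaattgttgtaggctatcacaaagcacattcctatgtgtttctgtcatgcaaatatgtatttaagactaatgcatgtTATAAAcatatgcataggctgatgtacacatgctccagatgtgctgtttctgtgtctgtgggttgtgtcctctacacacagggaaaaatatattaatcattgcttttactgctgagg

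The 2 short collagen IV stretches differ in that a GC box lies between the starts of Col4a1 and Col4a2, while none of the 6 motifs is in the stretch between Col4a4 and Col4a3. RefSeq promoter windows of 300 bases were at hand for 35 of the 44 genes, 38 windows in all. The GC box, spelled GGGCGG, was in 60.5% of these and in 35.7% of all 32851 windows of this length. The CCAAT box, spelled as its name, was in 34.2% of the collagen windows and in 37.4% of all windows. For the TATA box, searched as TATAAA, the shares were 13.2% in collagen genes and 13.6% over all windows. The core of the hypoxia response element, ACGTG, was found in 13.2% of the collagen windows and 19.6% of all. A SMAD-binding element, GTCTAGAC, was in 0% and 0.213%, and the E-box bound by TWIST and SNAIL factors, CAGGTG, in 13.2% and 20.2%.

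Type IV and the major fibrillar and type VI chains made up most of the summed collagen FPKM. Levels are given in FPKM, which divides by the gene length that the authors used. That length was 12426 bases for Col1a2 and 9816 for Col3a1, whose longest annotated transcripts have 5348 and 5564. For Col1a1 it was 6563 against 5930. Ranks and shares between genes therefore depend on these lengths, while comparisons of 1 gene between libraries do not. Over the 34 libraries the highest medians were those of Col4a1 (107), Col4a2 (105), Col6a1 (61.9), Col1a1 (52.6), Col3a1 (45.2), Col1a2 (33.7) and Col6a2 (23.5). In Control normoxia, type IV genes made up 35.5% ± 6.25 (SD, n = 6) of the summed collagen FPKM, fibrillar genes 29% ± 3.14, type VI genes 21.3% ± 2.37, transmembrane genes 6.06% ± 0.751 and fibril-associated genes 4.19% ± 0.484.

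**Figure D1:**
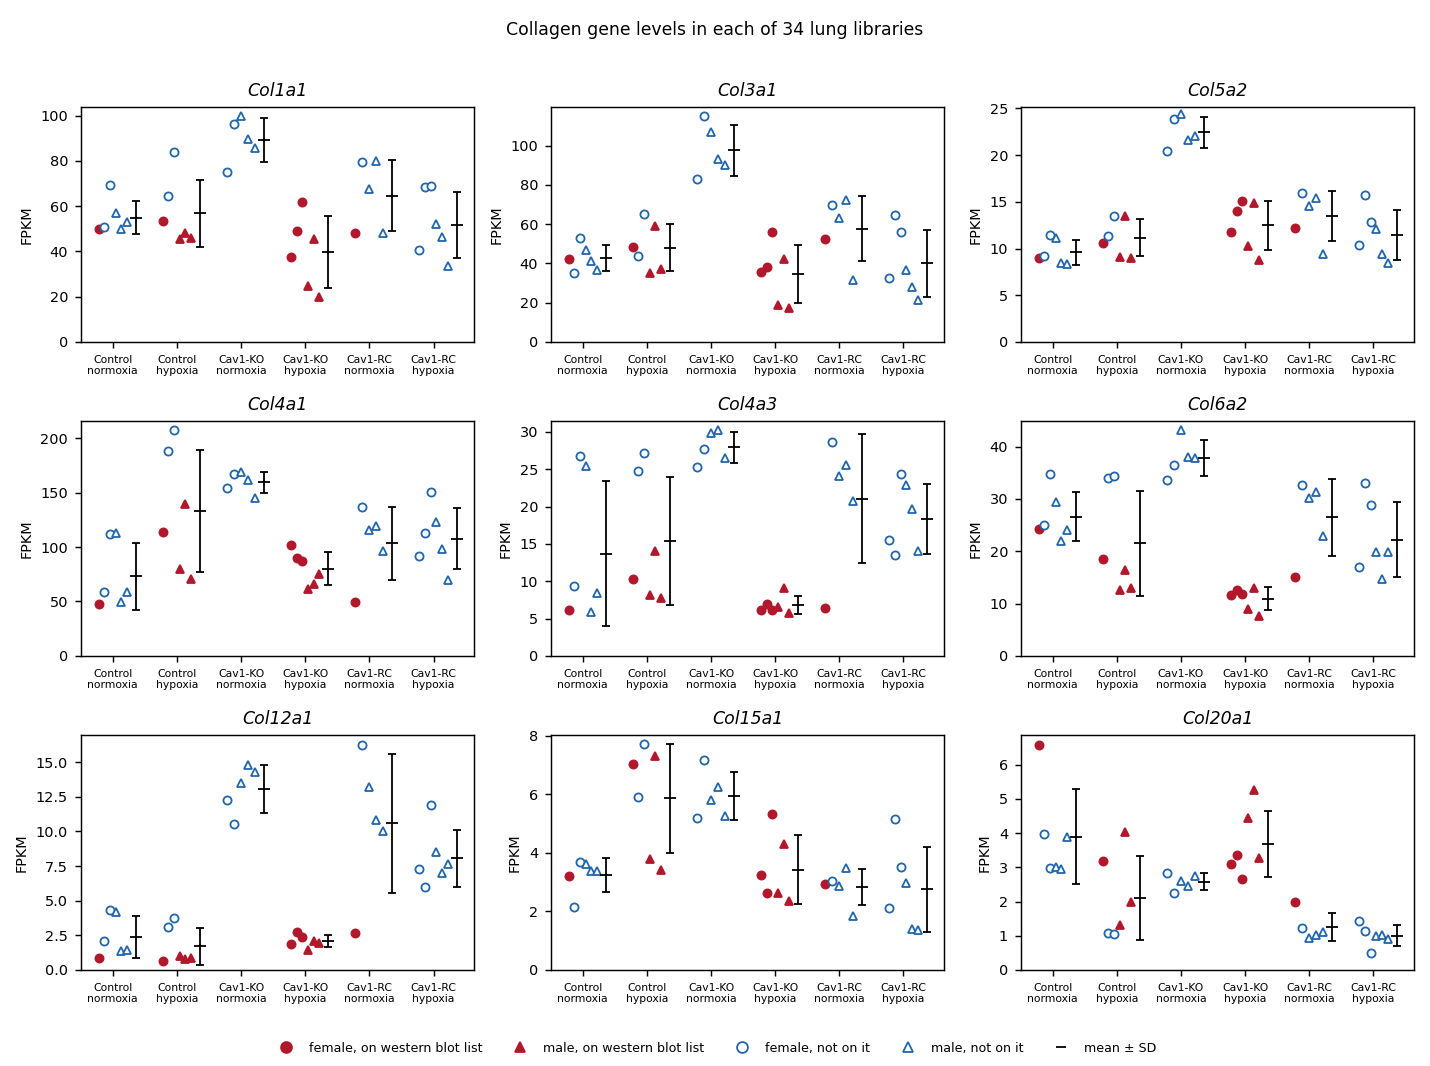
FPKM of 9 collagen genes in each of the 34 libraries by genotype and oxygen, with circles for females, triangles for males, filled red points for mice on the western blot list and bars for the mean ± SD. The 5 Cav1-KO normoxia libraries sit above all 6 Control normoxia libraries for Col1a1, Col3a1, Col5a2, Col4a1 and Col15a1, and at 10.5 to 14.8 against at most 4.31 for Col12a1.

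The summed FPKM of all 44 genes was highest in Cav1-KO normoxia, at 899 ± 63.8 (SD, n = 5), against 539 ± 113 in Control normoxia (n = 6), and lowest in Cav1-KO hypoxia, at 440 ± 60.4 (n = 6). Control hypoxia had 647 ± 190 (n = 6), Cav1-RC normoxia 639 ± 137 (n = 5) and Cav1-RC hypoxia 579 ± 119 (n = 6). The lowest Cav1-KO normoxia library (814) stood above the highest Control normoxia library (705), and the highest Cav1-KO hypoxia library (503) lay within the Control hypoxia range (458 to 931). The fibrillar sum alone was 275 ± 30.1 in Cav1-KO normoxia and 154 ± 18.1 in Control normoxia. Since these are whole lungs, fewer cells of a type and less RNA per cell cannot be told apart.

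**Figure D2:**
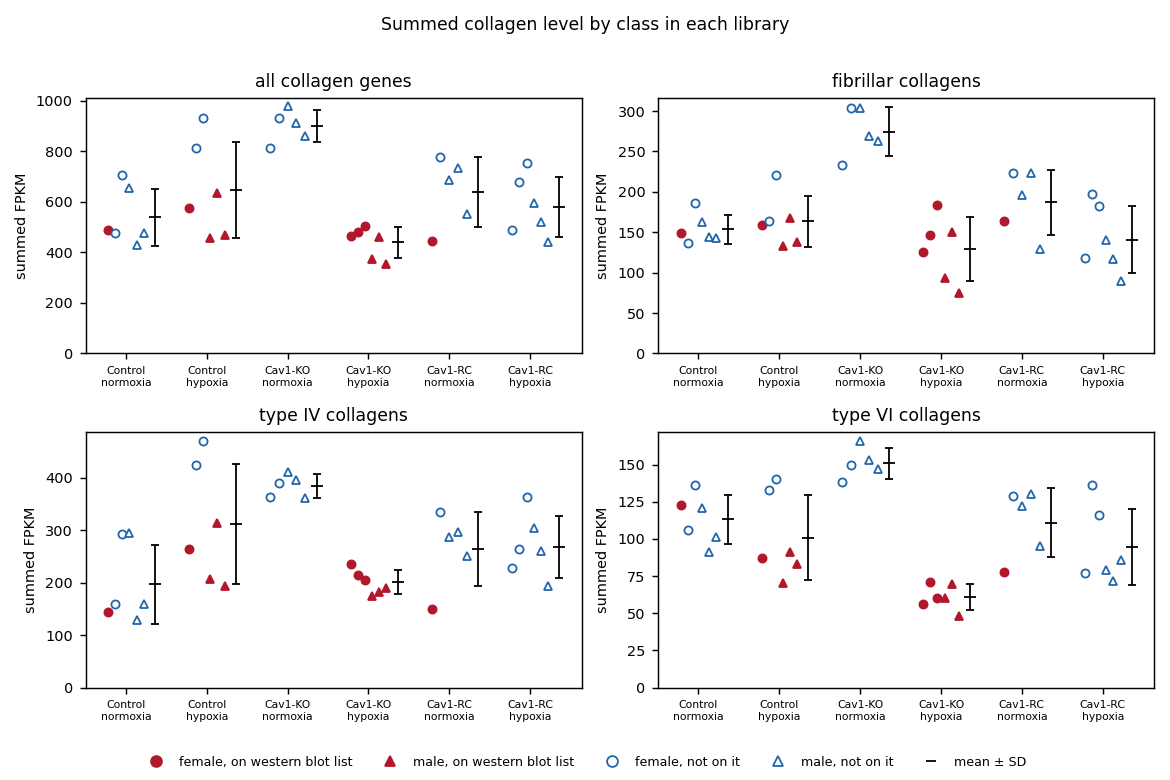
Summed FPKM of all collagen genes and of the fibrillar, type IV and type VI genes in each library by genotype and oxygen, with filled red points for mice on the western blot list and bars for the mean ± SD. All 4 sums have their highest mean in Cav1-KO normoxia, and the type VI sum has its lowest in Cav1-KO hypoxia (48 to 71.2, against 91.4 to 136 in Control normoxia).

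In normoxia Col1a1, Col1a2, Col3a1, Col5a2, Col12a1 and 3 of 6 type IV genes (Col4a1, Col4a2 and Col4a5) were higher in Cav1-KO than in Control. Of 38 collagen genes tested, 14 were higher and 2 lower in Cav1-KO than in Control at an adjusted p under 0.05, while 5.16% of all genes tested were called higher and 8.02% lower. The median log2 fold change was 0.22 over the collagens and -0.03 over all genes. By class, 5 of 9 fibrillar, 3 of 6 type IV, 2 of 6 type VI, both multiplexin, 1 of 6 fibril-associated and 1 of 3 anchoring and remaining genes rose, and 0 of 4 transmembrane genes changed. Among the 14 is Col24a1, which reached the low-count filter only through the Cav1-KO libraries, and 13 were higher without it.

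Col3a1, the single chain of type III collagen, stood at 82.8, 115, 107, 93 and 90.1 FPKM in the 5 Cav1-KO normoxia libraries and between 35.3 and 53.1 (median 41.6) in the 6 Control libraries. The groups did not overlap, and the log2 fold change was 1.19 ± 0.137 (SE, adjusted p = 0.00047). Both chains of type I collagen, the main load-bearing fiber, rose less. Col1a1 was at 75.1, 96.1, 100, 89.5 and 85.7 FPKM against 50 to 69.2 (median 51.9), a log2 fold change of 0.68 ± 0.117 (adjusted p = 0.00383), and Col1a2 had 0.61 ± 0.109 (adjusted p = 0.0048). Every Cav1-KO library was again above every Control library for both chains. Col5a2, a chain of type V collagen, which starts fibrils and sits inside them, had 20.4, 23.9, 24.4, 21.6 and 22 FPKM against 8.32 to 11.5 (median 9.08), with the smallest adjusted p of the collagens (log2 fold change 1.22 ± 0.111, adjusted p = 0.000118). The other chains of type V were not called, with 0.34 ± 0.125 for Col5a1 (adjusted p = 0.0916) and -0.72 for Col5a3 (adjusted p = 0.0874). Col24a1, a minor fibrillar gene, had 27 to 46 counts per Cav1-KO library and 2 to 11 per Control library, and since it passed the filter only where it was high, its fold is given as no result.

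Among the basement membrane genes, Col4a1 was at 154, 167, 169, 162 and 145 FPKM in Cav1-KO normoxia and at 47.4 to 113 (median 58.4) in Control. Controls spread widely, with 4 of 6 libraries at 47.4 to 58.4 and the other two at 112 and 113, yet none reached the Cav1-KO range (log2 fold change 1.12 ± 0.255, adjusted p = 0.0164). Col4a2, whose chain joins that of Col4a1 in the common type IV network, followed with 1.00 ± 0.249 (adjusted p = 0.0243), and Col4a5 with 0.71 ± 0.136 (adjusted p = 0.00716). Col4a3, a chain of the alveolar and kidney network, had 1.01 ± 0.418 and was not called (adjusted p = 0.129).

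Col12a1, which coats type I fibrils, was at 12.3, 10.5, 13.5, 14.8 and 14.3 FPKM in Cav1-KO normoxia and at no more than 4.31 (median 1.77) in Control, the largest change of any collagen above 1 FPKM (log2 fold change 2.42 ± 0.4, adjusted p = 0.00329). Both multiplexins, proteoglycan-like collagens of basement membrane zones, were higher, Col15a1 by 0.88 ± 0.142 (adjusted p = 0.00301) and Col18a1 by 0.48 ± 0.124 (adjusted p = 0.0276). Col28a1 rose by 1.42 ± 0.258 (adjusted p = 0.00539). Of the type VI chains, Col6a3 (0.59 ± 0.128, adjusted p = 0.0131) and Col6a2 (0.48 ± 0.12, adjusted p = 0.024) were called, while Col6a1 had 0.33 ± 0.111 (adjusted p = 0.0717). The 2 genes that fell were Col9a3 (-1.35 ± 0.338, adjusted p = 0.0249), a chain known from cartilage and present here at 9 to 19 counts per Cav1-KO library, and Col8a2 (-0.49 ± 0.133, adjusted p = 0.0364), a short-chain collagen.

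Without the listed Control library, so among mice off the blot list alone, 16 collagens were higher and 4 lower of 37 tested, including all 14 that were higher before, with 16.9% of all genes called in either direction. The count of calls depended on single libraries. It was 27 (with 28.2% of all genes called) without female Control normoxia replicate 3, 10 (5.06% of all genes) without female Cav1-KO normoxia replicate 1 and 8 (5.48%) without female Cav1-KO normoxia replicate 2. Markers of other cells moved in the same comparison. Of 10 airway club and ciliated markers 9 fell, with a summed level of 14800 to 18900 CPM in Cav1-KO and 21600 to 65700 in Control, and 5 of 10 smooth muscle and myofibroblast markers fell, from 643 to 1040 CPM in Control to 539 to 635. Alveolar fibroblast markers summed to 5030 to 5860 and 4770 to 6830 CPM, with 1 of 10 higher and 3 lower, and adventitial fibroblast markers to 1770 to 1870 and 1470 to 2030 CPM, with 3 of 10 higher and 1 lower. Of the endothelial markers 3 of 10 were higher and 0 lower (5890 to 6050 CPM against 4070 to 5910), and 3 of 10 were also higher for macrophages (at most 1340 against at most 869) and alveolar type 2 cells (24300 to 28800 against 23000 to 30900). Pericyte (561 to 650 CPM against 378 to 553) and alveolar type 1 markers (5380 to 6410 against 3630 to 5910) each had 2 of 10 higher and 0 lower. Their part in the collagen result was not tested.

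**Figure D3:**
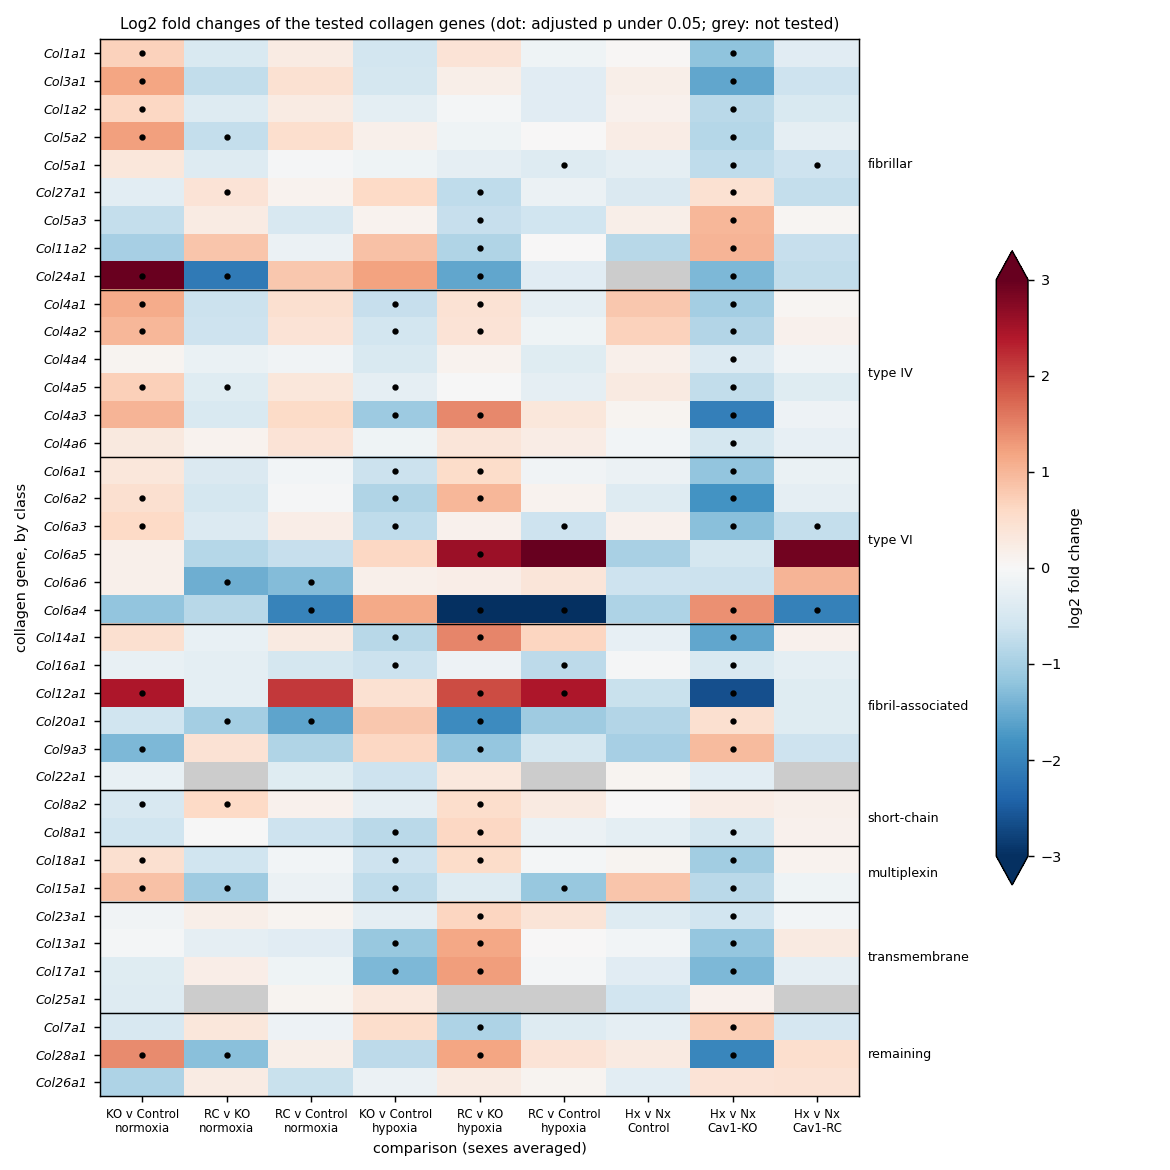
Log2 fold change of each tested collagen gene, ordered by class from top to bottom, in the 9 comparisons that average the sexes, from red (higher) to blue (lower), with a dot where the adjusted p is under 0.05 and grey where the gene was not tested (Hx, hypoxia; Nx, normoxia). Col1a1, Col3a1, Col5a2, Col4a1, Col4a2, Col6a3 and Col12a1 are red in the column of Cav1-KO against Control in normoxia and blue in that of hypoxia against normoxia in Cav1-KO.

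Under hypoxia the Cav1-KO levels were far lower than in normoxia. Of 38 collagens tested, 25 fell and 7 rose, in a comparison where 30.2% of all genes were called lower and 31.5% higher, and the median was -0.75 over the collagens and 0.02 over all genes. All 6 type IV, both multiplexin, 6 of 9 fibrillar, 3 of 6 type VI, 3 of 6 fibril-associated and 3 of 4 transmembrane genes fell. Col12a1 dropped to 1.46 to 2.74 FPKM (median 2) in the 6 hypoxia libraries (log2 fold change -2.64 ± 0.114, adjusted p = 5.69e-08). Col3a1 spanned 17.3 to 56.2 (median 36.8, log2 fold change -1.55 ± 0.227, adjusted p = 0.000106), Col1a1 19.9 to 61.9 (median 41.4, log2 fold change -1.21 ± 0.201, adjusted p = 0.00026), and Col1a2 had -0.8 ± 0.115 (adjusted p = 9.06e-05). In none of the 4 did a hypoxia library reach the normoxia range.

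Col4a3 fell from 25.3, 27.7, 29.8, 30.2 and 26.5 to 5.79 to 9.12 FPKM (median 6.35, log2 fold change -2.04 ± 0.107, adjusted p = 1.09e-07), Col4a1 to 61.1 to 102 (median 81.2, log2 fold change -1.02 ± 0.0804, adjusted p = 1.26e-06) and Col4a2 by 0.88 on the log2 scale. Col4a4 fell by only 0.42 ± 0.113 (adjusted p = 0.00699). The 3 main type VI chains fell too, Col6a2 by 1.79, Col6a3 by 1.25 and Col6a1 by 1.18 on the log2 scale. Of the transmembrane collagens, Col13a1, found at cell adhesions, fell by 1.16, Col17a1, a hemidesmosome component, by 1.34 and Col23a1 by 0.57. The genes that rose were Col11a2 (1.03 ± 0.19, adjusted p = 0.000565), Col6a4 (1.38 ± 0.329, adjusted p = 0.00321), Col5a3 (0.99), Col7a1 (0.74), Col20a1 (0.48), Col27a1 (0.45) and Col9a3 (0.95).

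All 6 hypoxic and none of the 5 normoxic Cav1-KO mice were on the blot list, so that hypoxia and list cannot be told apart here. A term for the list can be estimated only within groups of genotype, oxygen and sex that hold mice both on and off it. Those groups were all of females, either Control or Cav1-RC, each with 1 listed mouse. Values with the list term assume that the difference seen in these females holds in Cav1-KO mice and in males. That was not tested. When the list entered as a covariate in 1 fit of the 34 libraries, only Col6a2 (-1.07, adjusted p = 0.028), Col6a3 (-0.80, adjusted p = 0.0376), Col6a1 (-0.87, adjusted p = 0.0472) and Col5a1 (-0.85, adjusted p = 0.05) stayed called, with 1.22% of all genes. Col27a1, Col7a1, Col20a1, Col11a2 and Col9a3, higher without the term, and Col8a1, lower without it, took the opposite sign. In the same comparison 9 of 10 alveolar type 2 markers fell (summed 24300 to 28800 CPM in normoxia, 15800 to 26600 in hypoxia), as did 8 of 10 mesothelial, 6 of 10 alveolar fibroblast, 6 of 10 macrophage (at most 1340 in normoxia, at most 658 in hypoxia) and 5 of 9 cardiac muscle markers (832 to 1160 and at most 818), and 8 of 10 airway markers rose. Their part was not tested.

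The response to hypoxia differed between Cav1-KO and Control for many collagens. The difference of the 2 hypoxia effects was called for 25 of 38 collagens, 20 of them more negative in Cav1-KO, with 20.2% of all genes called. Among the 20 is Col24a1, for which no Control normoxia library reached the low-count filter, and its difference is given as no result. For other genes the values follow. The difference was -1.73 ± 0.301 for Col3a1 (adjusted p = 0.00454), -1.25 ± 0.252 for Col1a1 (adjusted p = 0.00621), -1.84 ± 0.334 for Col4a1 (adjusted p = 0.0047), -1.57 ± 0.306 for Col4a2 (adjusted p = 0.00548), -1.37 ± 0.186 for Col6a3 (adjusted p = 0.00178) and -1.66 ± 0.3 for Col15a1 (adjusted p = 0.00466). The 5 with a positive difference were Col6a4 (2.31), Col9a3 (1.93), Col11a2 (1.85), Col20a1 (1.36) and Col27a1 (0.87). With the list term, 12 of the 20 negative ones remained called (Col1a1, Col1a2, Col3a1, Col5a2, Col4a1, Col4a2, Col4a5, Col6a1, Col6a2, Col6a3, Col15a1 and Col28a1), none of the positive ones did, and 4.34% of all genes were called. For Cav1-KO mice and for males, this term carries over a difference seen only in Control and Cav1-RC females.

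In Control lungs, the count of collagens that hypoxia changed depended on how the blot list was treated. Of 37 genes tested by edgeR 0 were called, with 0.77% of all genes called higher and 0.668% lower, although DESeq2's Wald test called 2. Col4a1 was at 70.9 to 208 FPKM (median 127) in hypoxia against 47.4 to 113 in normoxia (log2 fold change 0.81 ± 0.289, adjusted p = 0.22), and Col15a1 at 3.4 to 7.72 (median 6.48) against 2.15 to 3.7 (0.84 ± 0.195, adjusted p = 0.061). Col1a1 had 0.03 ± 0.131, Col1a2 0.12 ± 0.122 and Col3a1 0.17 ± 0.169. Among the off-list Control libraries, which left females alone with 2 in each group, 8 of 34 collagens were called and 16% of all genes. Col4a1 (1.18, adjusted p = 0.0363), Col4a2 (1.10, adjusted p = 0.0444) and Col15a1 (1.18, adjusted p = 0.0243) were higher in hypoxia, and Col27a1, Col20a1, Col7a1, Col11a2 and Col9a3 lower. With the list term 12 of 39 were called, 5 higher and 7 lower, with 18.6% of all genes, Col4a1 (1.32, adjusted p = 0.000468) and Col4a2 (1.07, adjusted p = 0.00124) among the higher and Col11a2 (-1.78, adjusted p = 0.000116) and Col20a1 (-1.5, adjusted p = 0.000321) among the lower. For the males, the term was carried over from females. Without female Control hypoxia replicate 1, a listed mouse, the count was 4 (4.5% of all genes). Of the pericyte markers 3 of 10 were higher in hypoxia (624 to 772 CPM against 378 to 553), a part that was not tested.

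Within hypoxia, Cav1-KO lungs had less type IV and type VI collagen message than Control lungs. Of 38 collagens 14 were lower and 0 higher, beside 8.65% of all genes lower and 6% higher, with a median of -0.29 against 0.01 over all genes. Of these 14, 4 were type IV, 3 type VI, 2 fibril-associated, 2 multiplexin, 1 short-chain and 2 transmembrane, and 0 of the 9 fibrillar genes were called. Col6a3 was at 7.45 to 10.6 FPKM (median 8.3) in Cav1-KO and at 11.7 to 19.5 (median 13.6) in Control, with no overlap (log2 fold change -0.76 ± 0.128, adjusted p = 0.00568), and Col6a2 and Col6a1 fell by 0.9 and 0.65 on the log2 scale. Col4a3 had -1.1 ± 0.234 (adjusted p = 0.0155), Col4a1 -0.7 ± 0.189 (adjusted p = 0.0317) and Col4a2 -0.55 ± 0.158 (adjusted p = 0.0398). Col13a1 (-1.14 ± 0.229, adjusted p = 0.0122), Col17a1 (-1.35 ± 0.301, adjusted p = 0.0174) and Col8a1 (-0.82 ± 0.172, adjusted p = 0.015) also did not overlap. Col1a1 had -0.55 ± 0.202 (adjusted p = 0.0824), Col1a2 -0.29 ± 0.129 and Col3a1 -0.52 ± 0.239.

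Among listed mice only, which left 6 Cav1-KO and 4 Control libraries, 2 of 38 collagens were called, with 2.02% of all genes: Col6a3 stayed lower (-0.53, adjusted p = 0.0336) and Col12a1 was higher in Cav1-KO (1.44, adjusted p = 0.00207). The count was 22 without female Control hypoxia replicate 1, with 43.3% of all genes called, and 7 or 8 (4.75% to 6.09% of all genes) without any one of female Control hypoxia replicates 2 and 3, female Cav1-KO hypoxia replicates 1 and 2 and male Cav1-KO hypoxia replicates 1 and 3. Of the alveolar fibroblast markers 9 of 10 were lower in Cav1-KO hypoxia (summed 3280 to 4450 CPM against 4530 to 8400 in Control), as were 7 of 10 alveolar type 2 and 5 of 10 mesothelial markers. Their part was not tested.

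**Figure D4:**
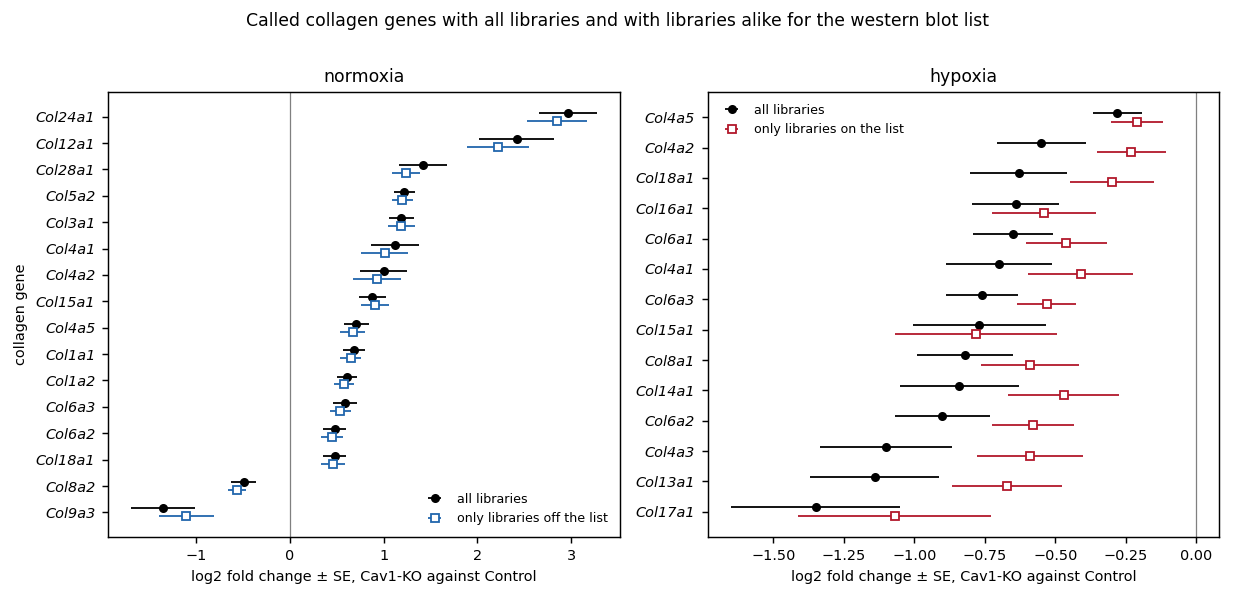
Log2 fold change ± SE of the collagen genes called in Cav1-KO against Control, with all libraries (black circles) and with libraries alike for the western blot list (squares), in normoxia (mice off the list) and hypoxia (mice on it). The 16 normoxia values keep their sign and lie close together, and in hypoxia 13 of the 14 genes lie nearer to 0 among listed mice, Col15a1 being the exception.

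The comparisons with libraries labelled Cav1-RC were designed to address endothelial Cav1, although these libraries did not differ from Cav1-KO in Cav1 level past the threshold. In normoxia, 7 of 36 collagens were lower and 2 higher in Cav1-RC than in Cav1-KO, beside 3.52% of all genes lower and 5.87% higher. Col5a2 was at 12.2, 15.9, 14.6, 15.4 and 9.46 FPKM in Cav1-RC, all under the Cav1-KO range (log2 fold change -0.72 ± 0.141, adjusted p = 0.0112). Col15a1 stood at 2.94, 3.04, 2.87, 3.49 and 1.84 FPKM, also without overlap (-1.06 ± 0.167, adjusted p = 0.00371). Col24a1 (-2.13), Col28a1 (-1.25), Col6a6 (-1.46), Col20a1 (-1.01) and Col4a5 (-0.37) were lower, and Col27a1 (0.40) and Col8a2 (0.60) higher. Col3a1 was at 52.3, 69.9, 63, 72.1 and 31.4 FPKM, under all Cav1-KO libraries but not called (-0.75 ± 0.214, adjusted p = 0.0565), and so was Col4a2 (-0.61 ± 0.176, adjusted p = 0.059). Col1a1 had -0.46 ± 0.172 (adjusted p = 0.133). Col12a1 did not follow, since 4 of 5 Cav1-RC libraries, at 10 to 16.2 FPKM, lay in or near the Cav1-KO range and the listed one was at 2.68. Of the airway markers 8 of 10 were higher in Cav1-RC (summed 20900 to 77300 CPM against 14800 to 18900), while 4 of 10 mesothelial (445 to 572 against 619 to 706) and 3 of 10 endothelial markers (4690 to 5630 against 5890 to 6050) were lower. Their part was not tested.

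Without that listed mouse (female Cav1-RC normoxia replicate 1) 12 of 37 collagens were called in this comparison, with 12.5% of all genes, 9 lower and 3 higher, Col4a1 (-0.38, adjusted p = 0.0125), Col4a2 (-0.38, adjusted p = 0.00369) and Col18a1 (-0.36, adjusted p = 0.0137) among the lower ones. The count was 28, with 42.1% of all genes called, without female Cav1-RC normoxia replicate 2, and 5 without female Cav1-KO normoxia replicate 2 (4.78%) or without the libraries that went against their sex label (3.29%). Set against Control, Cav1-RC normoxia had 3 of 38 collagens lower and 0 higher (1.57% of all genes lower, 1.76% higher): Col20a1 (-1.59 ± 0.227, adjusted p = 0.00271), Col6a4 (-2.01 ± 0.419, adjusted p = 0.0242) and Col6a6 (-1.3 ± 0.277, adjusted p = 0.0273). Of the markers, 2 of 10 pericyte genes were higher (summed 511 to 603 CPM against 378 to 553) and 2 of 10 mesothelial genes lower (445 to 572 against 513 to 816). Their part was not tested. The count of called collagens was 0 without the libraries against their sex label (0.898% of all genes), and 1 without male Control normoxia replicate 3 or male Cav1-RC normoxia replicate 1. For the last 2 the share of all genes called is not given, so the drop is not read as particular to collagens. Among off-list mice Col12a1 was higher in Cav1-RC than in Control (2.31, adjusted p = 0.01), and Col20a1 and Col6a4 were lower, with no other collagen called.

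In hypoxia, 15 of 37 collagens were higher and 8 lower in Cav1-RC than in Cav1-KO, beside 26.4% of all genes higher and 26.2% lower. Col12a1 stood at 5.95 to 11.9 FPKM (median 7.45) in Cav1-RC against 1.46 to 2.74 (1.96 ± 0.168, adjusted p = 5.12e-06), Col4a3 at 13.5 to 24.4 (median 17.6) against 5.79 to 9.12 (1.43 ± 0.169, adjusted p = 3.83e-05) and Col13a1 at 10.5 to 15.7 (median 13.2) against 4.95 to 6.55 (1.15 ± 0.102, adjusted p = 5.92e-06). None of the 3 overlapped. The type VI chains Col6a2 (1.00 ± 0.167, adjusted p = 0.000382) and Col6a1 (0.54 ± 0.137, adjusted p = 0.00514) and the type IV chains Col4a1 (0.43) and Col4a2 (0.41) were also higher. Col20a1 was lower (-1.88 ± 0.219, adjusted p = 3.46e-05). Col6a4 had 1 to 6 counts per Cav1-RC library and 29 to 108 per Cav1-KO library. It and Col24a1 reached the low-count filter only through the Cav1-KO libraries, and 6 collagens were lower without them. Of the fibrillar genes 4 of 9, all minor, were lower (Col27a1, Col11a2, Col24a1 and Col5a3), and Col1a1 (0.40), Col1a2 (-0.05) and Col3a1 (0.18) were not called. Markers higher in Cav1-RC were 9 of 10 mesothelial (summed 617 to 939 CPM against 374 to 670), 8 of 10 alveolar type 2 (23000 to 41500 against 15800 to 26600), 6 of 10 alveolar fibroblast (4940 to 6170 against 3280 to 4450), 7 of 8 adipose (89.5 to 180 against 20.5 to 171), 6 of 10 cardiac muscle genes (673 to 1370 against at most 818) and 5 of 7 thymus and lymph node genes (43.6 to 109 against 32.9 to 57.3). Lower were 5 of 10 pericyte (536 to 654 against 568 to 765, with 2 higher), 4 of 10 endothelial (4250 to 5530 against 4270 to 6740, with 2 higher) and 4 of 10 smooth muscle and myofibroblast markers (486 to 663 against 541 to 878). Their part was not tested.

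All 6 Cav1-KO and none of the 6 Cav1-RC hypoxia mice were on the blot list, so that genotype and list cannot be told apart. With the list term 2 collagens were called, with 7.98% of all genes, Col26a1 (1.62, adjusted p = 0.0382) and Col6a4, and 10 of the 23 collagens called without it changed sign, Col12a1 and Col4a1 to Col4a3 among them. The term was estimated in Control and Cav1-RC females alone, so it does not separate genotype from list here. Col6a5 was called higher (2.56 ± 0.947, adjusted p = 0.0371) on 1 library, since female Cav1-RC hypoxia replicate 2 had 13.4 FPKM on 2040 counts, and the other 5 had 0.078 to 0.254. Against Control in hypoxia, Cav1-RC had 1 of 36 collagens higher and 5 lower (4.87% of all genes higher, 4.19% lower). Col12a1 was higher (2.42 ± 0.349, adjusted p = 0.00328, 5.95 to 11.9 against 0.624 to 3.78 FPKM), and Col16a1 (-0.78), Col6a3 (-0.63), Col15a1 (-1.14), Col5a1 (-0.39) and Col6a4 were lower, the last having passed the filter only through the Control libraries. In that comparison 8 of 10 smooth muscle and myofibroblast markers were lower (summed 486 to 663 CPM against 910 to 1210) and 6 of 10 cardiac muscle markers higher (673 to 1370 against 168 to 1140, median log2 fold change 1.28), a part that was not tested. Among off-list mice, females alone with 2 Control libraries, 0 collagens were called by edgeR, with 1.39% of all genes called. The count was 3 without male Cav1-RC hypoxia replicate 2 or replicate 3.

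Hypoxia within Cav1-RC lowered 3 of 36 collagens and raised 0 (0.835% of all genes lower, 1.33% higher). Col6a3 was at 6.63 to 12.3 FPKM (median 10.1) in hypoxia against 15.4, 18.2, 14.4, 17.3 and 11.1 in normoxia (-0.72 ± 0.146, adjusted p = 0.0289), Col5a1 fell by 0.62 on the log2 scale, and the third, Col6a4, passed the filter only through the normoxia libraries. Col1a1 had -0.35 ± 0.204 (adjusted p = 0.475), Col3a1 -0.61 ± 0.244 (adjusted p = 0.256) and Col4a1 0.07 ± 0.25 (adjusted p = 0.937). The same 3 were called among off-list mice. The count was 0 without the 2 Cav1-RC libraries against their sex label, and 1 without male Cav1-RC hypoxia replicate 2 or 3. Of the markers, 3 of 10 smooth muscle and myofibroblast (486 to 663 CPM against 528 to 833) and 2 of 10 adventitial fibroblast genes (1230 to 1780 against 1490 to 1730) were lower and 3 of 10 mesothelial genes higher (617 to 939 against 445 to 572), and their part was not tested. The difference between the hypoxia effects of Cav1-RC and Control was called for 0 of 38 collagens by edgeR, with 0.114% of all genes called and 9 collagens at an unadjusted p under 0.05 (10.9% of all genes), led by Col6a3 (-0.82 ± 0.213, adjusted p = 0.135), and DESeq2's Wald test called 2. With the list term, again carried over from females to males, 10 were called, with 10.5% of all genes. Among libraries alike for the list edgeR called 0 of 38, with 0% of all genes.

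Females and males were also compared apart, with the threshold of the study's methods, an adjusted p under 0.05 and an absolute log2 fold change above 1. In normoxia, 6 of 36 collagens were higher in male Cav1-KO than in male Control (5% of all genes called) and 0 of 36 in females (0.122%). The 6 were Col5a2, Col3a1, Col28a1, Col12a1, Col4a1 and Col24a1, the last of which passed the low-count filter only through the Cav1-KO libraries. The sexes were not shown to differ in this, since the female minus male difference was called for 0 of 38 collagens by edgeR (0% of all genes), with 1 at an unadjusted p under 0.05 (3.51% of all genes), Col17a1 (-1.19 ± 0.316, adjusted p = 0.999 by edgeR). In hypoxia, 0 of 36 collagens were called for Cav1-KO against Control in females (0.768%) and 0 of 37 in males (0.929%), and the difference of the sexes was called for 0 (0% of all genes), with 4 at an unadjusted p under 0.05, against 16.4% of all genes (Col23a1, Col4a3, Col6a2 and Col27a1). DESeq2's Wald test called 1 of these differences and 6 and 0 collagens in the hypoxic females and males. The shares of all genes that it called are not given, so its counts are not read as particular to collagens. Without male Control hypoxia replicate 2, which went against its sex label, 2 of 38 were higher in the males (Col20a1 and Col6a4, with 2.92% of all genes called). Without female Control hypoxia replicate 1 the female comparison called 17 (23.9% of all genes) and the difference 12 (29.7%).

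For Cav1-RC against Cav1-KO, 6 collagens were lower in normoxic males (3.59% of all genes called), 4 without Col6a4 and Col24a1, which passed the filter only through Cav1-KO, and 0 changed in females (0.1%). Of the 3 male Cav1-RC normoxia libraries 2 (replicates 1 and 2) went against their sex label. Without both, 6 were lower (3.82%), Col15a1, Col20a1 and Col28a1 among them as before, but the Cav1-RC arm was then 1 library, assumed to vary like the Cav1-KO males. The count was 3 without male Cav1-RC normoxia replicate 3 or male Cav1-KO normoxia replicate 1. The share of all genes called is not given for these, so the change is not read as particular to collagens. In hypoxia 6 were higher and 2 lower in females (8.98%), and 5 higher and 5 lower in males (14.8%). Of these, Col6a4 in both sexes and Col28a1 and Col9a3 in males passed the low-count filter only through the genotype where they were high, which leaves 6 higher and 1 lower in females and 4 higher and 3 lower in males. Col12a1, Col4a3, Col13a1, Col14a1 and Col20a1 were called in both sexes, in the same direction. Hypoxia called 0 of 35 collagens in Control females (0.0175%) and 2 of 35 in Control males (6.36%), Col5a3 higher (1.16) and Col6a5, which passed the filter only through the normoxia libraries, lower. All male Control hypoxia mice and no male Control normoxia mouse were on the blot list, so hypoxia and list cannot be told apart in these males. In Control females, replicate 1 of each group was listed. Without male Control hypoxia replicate 2, which went against its sex label, 3 were called in the males, Col5a3 (1.26), Col6a5 and Col6a4, and 0 without replicate 3. For these counts too the share of all genes called is not given. In Cav1-KO, hypoxia lowered 9 of 36 in females (13.3%) and lowered 18 and raised 4 of 36 in males (17.7%), where 17 were lower without Col24a1, which passed the filter only through normoxia. The 9 genes lower in females (Col4a3, Col6a1, Col6a2, Col6a3, Col12a1, Col14a1, Col3a1, Col28a1 and Col24a1) were all lower in males too. Where edgeR called 0, the number of collagens at an unadjusted p under 0.05 was 14 for Cav1-KO against Control in normoxic females (11.5% of all genes), 17 in hypoxic females (29%) and 11 in hypoxic males (19.5%). It was 7 for Cav1-RC against Cav1-KO in normoxic females (8.73%) and 6 for hypoxia in Control females (4.79%).

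Ratios between chains were also compared, as group means with no test. The size of each ratio depends on the gene lengths behind FPKM and is no measure of chain proportions. Only differences between groups are read. The ratio of Col4a1 to Col4a2 had group means between 0.967 and 1.06. Col1a1 to Col1a2 was 1.62 to 1.85 in 5 of the 6 groups of genotype and oxygen and 1.34 ± 0.283 (SD, n = 6) in Cav1-KO hypoxia. Col3a1 to Col1a1 was 1.09 ± 0.0628 in Cav1-KO normoxia and 0.752 to 0.89 elsewhere. Col6a1 to Col6a2 was 2.43 ± 0.122 in Cav1-KO normoxia and 3.78 ± 0.585 in Cav1-KO hypoxia.

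Col4a3 and Col4a4, whose chains join in the same trimer, did not keep a constant ratio. Over the 34 libraries the ratio fell into separate ranges, 0.332 to 0.561 in 15 libraries and 1 to 1.72 in 19. All 12 mice on the blot list were in the lower range, with 3 off the list (female Control normoxia replicate 2 and male Control normoxia replicates 2 and 3), and none of the 19 was listed. All 6 Cav1-KO hypoxia libraries were low and all 5 Cav1-KO normoxia libraries high, while Control and Cav1-RC normoxia libraries fell on both sides. Col4a3 carried the difference, with 5.79 to 9.12 FPKM in Cav1-KO hypoxia and 13.5 to 24.4 in Cav1-RC hypoxia, against 11.2 to 18.8 and 12.3 to 16.8 for Col4a4.

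**Figure D5:**
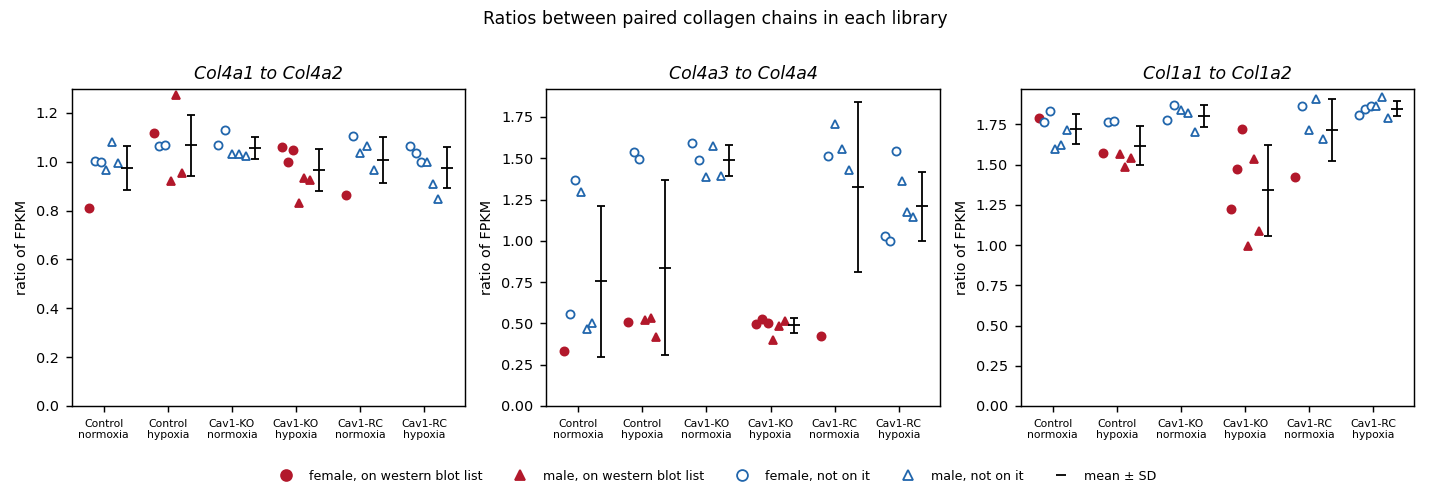
Ratio of FPKM of Col4a1 to Col4a2, Col4a3 to Col4a4 and Col1a1 to Col1a2 in each library by genotype and oxygen, with filled red points for mice on the western blot list and bars for the mean ± SD. Col4a3 to Col4a4 lies at 0.332 to 0.561 in 15 libraries, every listed one among them, and at 1 to 1.72 in 19.

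The collagens also differ in base composition, with 45.9% GC (Col25a1) to 62.9% GC (Col11a2) in the longest annotated transcript. Across the 38 tested genes, which are not independent replicates, Spearman's rho of GC content with the log2 fold change was -0.41 for Cav1-KO against Control in normoxia and 0.39 for Cav1-KO hypoxia against normoxia, while over all genes it was -0.06 and 0. The 7 collagens that rose in hypoxic Cav1-KO lungs had a median GC of 59.4% and the 25 that fell 55.1%.

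Genes that fold, trim, bind or break down collagen were counted from lists drawn up for this purpose. In Cav1-KO against Control in normoxia, with 5.16% of all genes called higher and 8.02% lower, 9 of 24 matrix partners rose and 1 fell, 5 of 23 folding and hydroxylation genes rose and 1 fell, 2 of 13 cleavage and crosslinking genes rose, 4 of 15 degradation genes rose and 1 fell, 1 of 11 receptors rose, and 5 of 18 genes of the TGF-beta axis rose and 1 fell. The medians of these lists lay between 0.26 (TGF-beta axis) and 0.54 (matrix partners), against -0.03 over all genes. Among mice off the blot list the counts of higher genes were 11, 7, 3, 5, 3 and 7 in the same order, with 7.34% of all genes called higher and 9.53% lower. Serpinh1, the collagen-specific chaperone of the endoplasmic reticulum, rose by 0.83 (adjusted p = 0.000211), and Sparc, which binds collagen outside the cell, by 0.96 (adjusted p = 0.000827). Fmod, a proteoglycan of fibrils, rose by 1.71 (adjusted p = 0.000557), Adamts2, which removes the amino propeptide, by 0.57 (adjusted p = 0.00243) and Mmp13, a collagenase, by 2.60 (adjusted p = 0.00175). Among the TGF-beta genes Ltbp1, which holds latent TGF-beta in the matrix, rose by 0.78 (adjusted p = 0.00118), and Ctgf, a TGF-beta target, fell by 0.91 (adjusted p = 0.00636). Spp1, osteopontin, fell by 1.13 (adjusted p = 0.000571).

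In Cav1-KO hypoxia against normoxia, where 30.2% of all genes were called lower and 31.5% higher with a median of 0.02, there were 19 of 24 matrix partners lower and 4 higher, 14 of 23 folding genes lower and 3 higher, 10 of 13 cleavage and crosslinking genes lower and 1 higher, 5 of 15 degradation genes lower and 3 higher, 7 of 11 receptors lower and 2 higher and 13 of 18 TGF-beta genes lower and 0 higher. The list medians were -0.99 for matrix partners, -0.34 for folding, -1.03 for cleavage and crosslinking, -0.15 for degradation, -0.29 for receptors and -0.41 for the TGF-beta axis, and the share of degradation genes called lower was near that of all genes. Timp3, a tissue inhibitor of metalloproteinases, fell by 3.81 (adjusted p = 1.68e-07). Fn1, fibronectin, fell by 1.57 (adjusted p = 1.56e-07), Pcolce2, an enhancer of procollagen cleavage, by 1.77 (adjusted p = 7.29e-08) and Ddr2, a collagen receptor kinase, by 1.26 (adjusted p = 9.58e-07). Eln, elastin, rose by 1.32 (adjusted p = 0.000117) and Lox, a lysyl oxidase, by 0.82 (adjusted p = 0.000211). As for the collagens, hypoxia and the blot list cannot be told apart here. In Cav1-KO against Control in hypoxia, with 6% of all genes called higher and 8.65% lower, 7 of 24 matrix partners fell, 5 folding genes rose and 4 fell, 1 cleavage gene rose and 5 fell, 2 degradation genes rose and 6 fell, 1 receptor fell, and 2 TGF-beta genes rose and 4 fell, with list medians between -0.45 and -0.17 against 0.01 over all genes. Among listed mice 2 matrix partners, 2 cleavage genes, 1 degradation gene and 1 TGF-beta gene were lower, 1 degradation and 1 TGF-beta gene were higher and no folding gene or receptor was called by edgeR, with 0.802% of all genes called higher and 1.22% lower. Mmp13 was higher with all mice (3.17, adjusted p = 0.00111) and with listed mice (2.76, adjusted p = 0.00638). Mmp2, a gelatinase, fell by 1.25 with all mice (adjusted p = 0.00721) and had -0.77 with listed mice (adjusted p = 0.0515).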

How the data were processed

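The authors sequenced poly-A selected, strand-marked libraries of whole lung, aligned the reads to mm10 with HISAT2 2.0.5 and counted them per gene with featureCounts 1.5.0-p3, and deposited raw counts and FPKM values for every library. The counts were used for tests and the FPKM values, made by the authors per gene length and depth, for levels. Total counts ranged from 12425535 to 33343006 per library (median 18015172.5). All 34 assigned libraries carry 1 batch label, and 1 library labelled only as possibly female Cav1-KO normoxia was left out of every comparison. Each comparison was fitted with edgeR 4.0.16 (quasi-likelihood test, TMM scaling, its filter on low counts; R 4.3.3) over the libraries it concerns, on all genes, with Benjamini-Hochberg adjustment. Comparisons averaging the sexes call a gene at an adjusted p under 0.05, and those within 1 sex also ask for an absolute log2 fold change above 1. The labels do not say more than that each library is 1 mouse, so p-values measure the spread between mice. The fits did not pair libraries by replicate number. The deviations of same-numbered libraries correlated at -0.429 to 0.567 (median 0.00995) over 177 pairs, 32 of them above 0.1. The highest values were among female Control and female Cav1-RC libraries, 0.567 being that of replicate 1 in normoxia of these genotypes, both listed mice. Alternatives were DESeq2 1.42.0, limma 3.58.1 on log2(FPKM + 1) or log2(FPKM + 0.1), no filter, a fit over all libraries, a term for the blot list, and leaving out libraries. The fits were tested on simulated data. Collagens and other gene lists were chosen with earlier results of these data known. Every collagen may be named, and those given in full are up to 4 per class with the smallest adjusted p and Col1a1, Col1a2, Col3a1, Col4a1, Col4a2, Col6a1 and Col15a1, and up to 3 called genes per other list and direction. The western blot list holds the animal numbers in the study's blot source data.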

Additional observations from a re-analysis of the deposited data

Results flagged for a closer look

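The hypoxia effect differed between Cav1-KO and Control, by an interaction test, for 25 of 38 collagens, with 20.2% of all genes called. Fewer stayed called with the list term, as given above, and none of the positive ones did. That term was estimated in Control and Cav1-RC females alone, and whether it holds in Cav1-KO mice was not tested. The difference, on the log2 scale, was negative for Col6a3 (-1.37), Col6a2 (-1.40), Col4a5 (-1.01), Col3a1 (-1.73), Col15a1 (-1.66), Col5a2 (-1.09), Col4a1 (-1.84), Col6a1 (-1.01), Col1a2 (-0.92), Col4a2 (-1.57), Col18a1 (-1.13), Col1a1 (-1.25), Col28a1 (-2.23), Col14a1 (-1.34), Col4a3 (-2.13), Col13a1 (-1.08), Col12a1 (-1.98), Col24a1 (-1.78), Col4a4 (-0.58) and Col17a1 (-1.01). The difference was positive for Col9a3 (1.93), Col11a2 (1.85), Col6a4 (2.31), Col20a1 (1.36) and Col27a1 (0.87). All 6 Cav1-KO hypoxia mice and none of the 5 Cav1-KO normoxia mice were on the western blot list.

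Each of the 38 tested collagens was examined in each of the 6 groups of genotype and oxygen. In 21 of these sets of values, 1 library stood far from the others by Dixon's test, 16 high and 5 low, where chance alone would give about 1 in 20. Female Cav1-RC normoxia replicate 1 was apart for 6 genes and female Control normoxia replicate 1 for 5, and both mice are on the western blot list. The first had 1.98 FPKM of Col20a1 (others 0.934 to 1.23), 2.71 of Col7a1 (1.2 to 1.58), 0.92 of Col17a1 (1.14 to 1.2), 1.27 of Col11a2 (0.505 to 0.643), 0.413 of Col9a3 (0.201 to 0.245) and 0.178 of Col26a1 (0.0288 to 0.0721). The other had 6.58 of Col20a1 (2.96 to 3.98), 3.87 of Col5a3 (1.29 to 1.97), 1.75 of Col11a2 (0.429 to 0.802), 0.143 of Col28a1 (0.4 to 0.533) and 0.669 of Col6a4 (0.182 to 0.344). Female Cav1-RC hypoxia replicate 2 had 13.4 FPKM of Col6a5 (0.078 to 0.254), 0.377 of Col6a6 (0.0881 to 0.168) and 0.21 of Col24a1 (0 to 0.077). Single values stood apart in female Control normoxia replicate 3 (Col1a1, 69.2 against 50 to 56.8), male Cav1-KO hypoxia replicate 2 (Col4a3, 9.12 against 5.79 to 6.91), female Control normoxia replicate 2 (Col15a1, 2.15 against 3.2 to 3.7), female Cav1-RC hypoxia replicate 3 (Col7a1, 0.408 against 1.2 to 1.51), female Cav1-KO normoxia replicate 1 (Col8a1, 0.852 against 1.05 to 1.11), male Control normoxia replicate 1 (Col6a6, 0.294 against 0.16 to 0.202) and male Control hypoxia replicate 3 (Col26a1, 0.231 against 0.0491 to 0.109).

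The library labelled only as possibly female Cav1-KO normoxia, whose animal number is on the western blot list, was above the highest Control normoxia library for 3 of 44 collagens. These were Col24a1 (0.155 FPKM against 0.0658, on 35 counts), Col2a1 (0.0256 against 0.0207, on 7 counts) and Col10a1 (0.054 against 0.0348, on 5 counts). It had 25.3 FPKM of Col3a1, where the Cav1-KO normoxia libraries had 82.8 to 115 and the Cav1-KO hypoxia libraries 17.3 to 56.2. Col1a1 stood at 29.6 (75.1 to 100 and 19.9 to 61.9), Col12a1 at 1.55 (10.5 to 14.8 and 1.46 to 2.74), Col6a2 at 10.4 (33.6 to 43.2 and 7.69 to 12.9) and Col4a3 at 4.32 (25.3 to 30.2 and 5.79 to 9.12). Its group is not taken from these values.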

How the results depend on the processing

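Counts of called collagens are given in the order of the comparisons named. Shares of all genes called under these settings are given only above, for some of them, and moved too. The counts here therefore describe the processing and are not read as results about collagens. With an absolute log2 fold change above 1 added, they were 7 and 3 for Cav1-KO against Control in normoxia and hypoxia, 5 and 11 for Cav1-RC against Cav1-KO, 3 for Cav1-RC against Control in hypoxia, 16 for hypoxia in Cav1-KO and 1 in Cav1-RC. DESeq2's Wald test gave 16 for Cav1-RC against Cav1-KO and 5 for Cav1-RC against Control in normoxia, 2 for hypoxia in Control, 1 for the sex difference in hypoxia, 2 for the Cav1-RC difference in hypoxia effect, and in females 5 and 6 for Cav1-KO against Control in normoxia and hypoxia, 1 for Cav1-RC against Cav1-KO in normoxia and 1 for hypoxia in Control. Without the low-count filter, there were 22 for Cav1-RC against Cav1-KO in normoxia, 1 for hypoxia in Control, 6 in Cav1-RC, 1 for the Cav1-RC difference, and in females 7, 5 and 3 for Cav1-KO against Control in normoxia and hypoxia and Cav1-RC against Cav1-KO in normoxia. In 1 fit over all libraries, Cav1-RC against Cav1-KO and against Control in normoxia gave 5 and 5, hypoxia in Control 2 and the Cav1-RC difference 1. limma on log2(FPKM + 1) gave 9, 5, 1 and 0 for Cav1-KO against Control in hypoxia, Cav1-RC against Cav1-KO and against Control in normoxia, and hypoxia in Cav1-RC, log2(FPKM + 0.1) gave 9, 5, 1 and 1, and log2(FPKM + 1) unfiltered 4 for the first, 1 for Cav1-RC against Control in normoxia, 2 in hypoxia and 0 for the last. Without libraries against their sex label, Cav1-RC against Cav1-KO in normoxia gave 5, against Control 0 and hypoxia in Cav1-RC 0. The same alternative within males, chosen after seeing the data, gave 2 for Cav1-KO against Control in hypoxia. Among libraries alike for the blot list, Cav1-KO against Control in hypoxia gave 2, Cav1-RC against Control in hypoxia 0 and hypoxia in Control 8, and no such libraries exist for the comparisons that set Cav1-KO hypoxia against Cav1-KO normoxia or Cav1-RC hypoxia. With the list term, there were 2 for Cav1-RC against Cav1-KO in hypoxia, 8 and 10 for Cav1-RC against Control in normoxia and hypoxia, 12, 4 and 5 for hypoxia in Control, Cav1-KO and Cav1-RC, and 12 and 10 for the Cav1-KO and Cav1-RC differences. Under that term, for Cav1-RC against Cav1-KO in hypoxia, Col4a1 (-0.56), Col4a2 (-0.39), Col4a3 (-0.20), Col12a1 (-0.35), Col18a1 (-0.14), Col27a1 (0.03), Col7a1 (0.56), Col5a3 (0.13), Col8a1 (-0.11) and Col11a2 (0.85) changed sign, and for hypoxia in Cav1-KO Col27a1 (-0.35), Col7a1 (-0.75), Col20a1 (-0.64), Col8a1 (0.21), Col11a2 (-0.73) and Col9a3 (-0.08). The cause was not tested. As given above, the list term was estimated in Control and Cav1-RC females alone, and these sign changes carry it over to Cav1-KO mice and to males.

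Leaving out 1 library at a time gave 8 to 27 and 7 to 22 for Cav1-KO against Control in normoxia and hypoxia, 5 to 28 and 17 to 24 for Cav1-RC against Cav1-KO, 1 to 4 and 3 to 6 for Cav1-RC against Control, 0 to 4, 31 to 34 and 1 to 4 for hypoxia in Control, Cav1-KO and Cav1-RC, 0 to 0 and 0 to 12 for the sex differences in normoxia and hypoxia, and 17 to 27 and 0 to 0 for the Cav1-KO and Cav1-RC differences in hypoxia effect. Within 1 sex it gave 0 to 4 (females) and 5 to 10 (males, 10 without male Control normoxia replicate 1) for Cav1-KO against Control in normoxia, 0 to 17 and 0 to 3 in hypoxia, 0 to 16 (16 without female Cav1-RC normoxia replicate 2) and 3 to 6 for Cav1-RC against Cav1-KO in normoxia, 5 to 9 and 7 to 12 in hypoxia, 0 to 0 and 0 to 3 for hypoxia in Control, and 6 to 11 and 18 to 21 in Cav1-KO. Where leaving out a library leaves an arm with 1 library, that library is assumed to vary like the others. The share of all genes called also moved with the library left out, as given above for several. These ranges are therefore not read as results about collagens.

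The reported fits did not pair the samples by replicate number. With the replicate number as a block, Cav1-RC against Control in normoxia gave 1 called collagen, and in females Cav1-KO against Control in normoxia gave 8 and Cav1-RC against Cav1-KO in normoxia 1, while the other 22 counts stayed within 1.5 times. The share of all genes called with the block is not given here, so these counts are not read as results about collagens.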
